A study of Mus musculus with 25 samples.

Results

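Lag3, Havcr2, Cd22, Cd33, Cd274, Sirpa and Cd300lf encode inhibitory receptors of immune cells and, in Cd274, a ligand of such a receptor, and they were followed here in single myeloid cells of the mouse spinal cord after injury. The 7 genes were selected by name from values measured in these same libraries, namely their level by cell type, cluster and time point, out of 22439 gene symbols. All 7 were present in every library and all 7 passed the filter on low counts in each comparison. Levels by cell type, cluster and time point are therefore given as a description. Counts of members called in those contrasts are given beside all genes, and nothing is read from them. The comparisons of sorts and sexes played no part in the choice and were tested.

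The study profiled myeloid cells by droplet 3' single-cell RNA sequencing after spinal cord injury, from a lesion segment of 5 mm freed of myelin on a percoll gradient and sorted by flow cytometry. All mice carried Cx3cr1CreERT2, a Cre recombinase and a yellow reporter (YFP) placed under the Cx3cr1 gene, which microglia and many monocytes use, so cells with little Cx3cr1 activity could be missed. In mice labelled Cx3cr1CreERT2 all YFP+ cells were taken, called mixed here (12 libraries). In mice labelled Cx3cr1CreERT2:R26tdTomato a red reporter split RFP+/YFP+ cells, called resident (5 libraries), from RFP-/YFP+ cells, called infiltrating (7 libraries). Sort and genotype were split the same way and cannot be told apart. Controls had a laminectomy alone (2 libraries, 1 mixed and 1 resident). After injury there were 5 libraries from day 1 (D1), 4 from day 2 (D2), 7 from day 3 (D3), 5 from day 10 (D10) and 2 from day 21 (D21). Each library pooled tissue of 1 to 3 mice of 1 sex, and ages are not given in the sources used here. Nothing ties a library to an animal, so p-values measure the spread between libraries. A further D3 library (1 of the 7) is named infiltrating but labelled with both colours and entered no comparison.

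The deposited tables held 30958 cells with 155 to 3800 cells per library and a median of 1577 to 11233 unique molecular identifiers (UMIs, counted transcripts) per cell in each library. No barcode occurred in more than 1 library. Cells carried a deposited code for 4 types and 16 clusters, without names, and the types were checked against marker genes. Of 9 microglia markers, 9 reached 20 counts per 1000000 UMIs (CPM) in the 13289 cells called microglia here, against 4 in the 12841 cells called macrophages, which include monocytes and held 9 of 9 macrophage markers and 8 of 8 monocyte markers at that level. The 2712 dendritic-like cells held 6 of 8 dendritic cell markers, and the 2116 neutrophil-like cells held 7 of 7 neutrophil markers. The lists did not separate the types cleanly, since microglia also held 6 of 9 macrophage markers at that level. Dendritic-like cells also held 6 of 8 monocyte, 5 of 9 macrophage and 4 of 6 plasmacytoid dendritic cell markers. Neutrophil-like cells also held 6 of 8 monocyte and 5 of 9 macrophage markers. Depth differed between types, with a median of 3062 UMIs per microglial cell and 9144 per macrophage. Levels below are CPM of the summed cells of 1 type in 1 library, from at least 20 cells, so they compare a gene between samples and not genes with each other. A lower level cannot tell fewer expressing cells from less RNA per cell.

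Many inhibitory receptors carry a short tyrosine motif in their tail, or act through a partner, and recruit phosphatases that quench activating signals. Sirpa binds Cd47 on other cells and holds back their engulfment. Siglecs such as Cd22 and Cd33 read sialic acid on cell surfaces. Lag3, Havcr2 and Cd274 are best known as checkpoint molecules between T cells and the cells they meet. Microglia, the resident macrophages of the nervous system, use several of these receptors to stay quiescent, whereas macrophages that enter a lesion from the blood arrive with their own set.

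In GRCm38 (GENCODE M21), Lag3 lies on the minus strand of chromosome 6 from 124904361 to 124911705 and Havcr2 on the plus strand of chromosome 11 from 46454935 to 46481255. Both Siglecs lie on the minus strand of chromosome 7, Cd22 from 30865402 to 30880342 and Cd33 from 43524216 to 43544428. Cd274 lies on the plus strand of chromosome 19 from 29367455 to 29388095, and Sirpa on the plus strand of chromosome 2 from 129592835 to 129632228. Cd300lf lies on the minus strand of chromosome 11 from 115116214 to 115133992. It sits inside Rab37, which is on the opposite strand, over 17779 bases. Rab37 itself reached at most 1.89 CPM in microglia and 2.81 CPM in macrophages, against a median Cd300lf level of 21.0 and 159 CPM there. Cd22 and Cd274 each overlap an antisense gene that is not among the counted symbols, and the use of strand in counting is not given in the sources used here. Sirpa has close paralogs (Sirpb1a, Sirpb1b and Sirpb1c), so the split of reads between them is uncertain.

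The promoters of Havcr2, Cd33 and Cd300lf are shown, the members that hold a match to a motif of a myeloid factor. In the values below Havcr2 and Cd33 were lower, and Cd300lf higher, in D1 than in control microglia. They run from 250 bases before to 50 bases after the annotated start (RefSeq, GRCm38.p6), 5' to 3' on the gene's strand, with capitals at matches to GAGGAA, a core bound by the myeloid factor PU.1, or to TTCCTC on the other strand. Havcr2 is chr11:46454681-46454980 on the plus strand, Cd33 is chr7:43533122-43533421 on the minus strand and Cd300lf is chr11:115133943-115134242 on the minus strand.
Havcr2: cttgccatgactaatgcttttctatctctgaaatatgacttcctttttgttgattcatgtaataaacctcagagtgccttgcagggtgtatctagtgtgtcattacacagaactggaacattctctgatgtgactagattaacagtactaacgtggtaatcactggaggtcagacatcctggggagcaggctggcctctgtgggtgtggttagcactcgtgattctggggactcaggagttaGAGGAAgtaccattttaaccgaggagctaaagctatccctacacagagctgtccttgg
Cd33: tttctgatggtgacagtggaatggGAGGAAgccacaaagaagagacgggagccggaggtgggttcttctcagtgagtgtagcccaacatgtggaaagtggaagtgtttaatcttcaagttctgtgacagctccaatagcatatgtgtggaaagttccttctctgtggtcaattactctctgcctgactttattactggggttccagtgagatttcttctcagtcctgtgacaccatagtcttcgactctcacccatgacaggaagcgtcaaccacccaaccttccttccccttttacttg
Cd300lf: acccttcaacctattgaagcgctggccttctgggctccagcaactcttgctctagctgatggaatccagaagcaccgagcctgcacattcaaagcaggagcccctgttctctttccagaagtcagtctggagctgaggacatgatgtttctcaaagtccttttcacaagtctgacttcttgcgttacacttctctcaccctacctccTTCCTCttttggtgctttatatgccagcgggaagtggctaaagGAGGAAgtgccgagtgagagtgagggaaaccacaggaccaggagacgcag
Counted from the start base as 0, the match began at -8 in Havcr2, at -226 in Cd33, and at -43 and 0 in Cd300lf. The RefSeq starts of Cd33 and of Cd22 lie inside the GENCODE gene spans given above and not at their 5' ends. The promoters of Cd22 and Cd274 held none, and those of Lag3 and Sirpa were not searched. These letters occur in 28.3% of the 32851 promoters of that length, so 3 of 5 members with a match is a description of the sequence only.

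The time series of microglia uses mixed and resident libraries, and that of macrophages mixed and infiltrating ones; sums of the other sort are given where they bear on a value. Lag3, a receptor for MHC class II, had its lowest mean level in microglia on D2 and its highest on D10. The D3 libraries overlapped those of D1, and the mixed ones among them spanned the D1 values, which are all from mixed libraries. Its level was 381 CPM in the mixed and 223 CPM in the resident control library, and 106, 102 and 122 CPM in the 3 mixed D1 libraries. On D2 it was 61.6 CPM in the resident library and 21.6 and 22.2 CPM in the mixed libraries, and on D3 it was 47.6 and 20.7 CPM in the resident and 144, 108 and 67.3 CPM in the mixed libraries. All D1, D2 and D3 libraries lay below both controls. On D10 the level was 315 CPM in the resident and 459 and 667 CPM in the mixed libraries, and 433 CPM in the D21 library. These 3 D10 libraries lay above all D3 libraries, with a mean of 480 ± 177 CPM (SD, n = 3) against 77.6 ± 49.0 CPM (SD, n = 5), 6.19-fold higher, and overlapped the controls at 302 ± 111 CPM (SD, n = 2). The few microglia of infiltrating libraries had less: 119 CPM on D10 (36 cells, 10 Lag3 molecules), which lies within the D3 range, and 125 CPM on D21 (41 cells, 16 molecules). With library scaling the log2 change was -1.12 (SE 0.59) from control to D1, -1.75 (SE 0.52) to D3, 1.01 (SE 0.56) to D10, and 2.76 (SE 0.43) from D3 to D10.

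Sequencing pools were not spread evenly over time for these values: no pool held both a control and a D1 or D3 library, or both a D3 and a D10 library, of microglia. With pool as a term, the log2 change of Lag3 from D3 to D10 was 0.79 (SE 0.53), and from control to D3 it was 0.32 (SE 0.54), a change of sign. These estimates are linked only through the pool that holds D2 and D3 libraries. From control to D10, which share pools, the change of Lag3 with pool was 1.11 (SE 0.21). Within the pool that holds the resident control, Lag3 was 223 CPM in the control, 61.6 CPM on D2 and 315 CPM on D10, all resident libraries. In the pool with the mixed control it was 381 CPM in the control and 459 and 667 CPM on D10, and in the pool with the D1 libraries it was 102 to 122 CPM on D1 and 433 CPM on D21. Within each of these 3 pools the mixed or resident D10 or D21 libraries were the higher ones, whereas the infiltrating D10 library at 119 CPM, in the pool of the mixed control, lay below that control. The values against controls depend on which of the 2 controls is used. Without the mixed control the log2 change of Lag3 was -0.27 to D1, -0.84 to D3 and 1.98 to D10, and without the resident control it was -1.98, -2.57 and 0.23.

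Cd33, a Siglec of myeloid cells, was the member with the largest ratio of control over D1 by mean level. It was 283 and 254 CPM in the mixed and resident controls, and 26.3, 19.4 and 44.8 CPM on D1, an 8.91-fold lower mean with no overlap (30.1 ± 13.1 CPM, SD, n = 3, against 269 ± 20.6 CPM, SD, n = 2). By D2 it was 119 CPM in the resident and 43.6 and 51.8 CPM in the mixed libraries, and on D3 the 5 libraries spanned 85.2 to 133 CPM. On D10 it was 165 CPM in the resident and 114 and 135 CPM in the mixed libraries, overlapping D3 and still below both controls. The few microglia of infiltrating libraries had 59.4 CPM on D10 (5 Cd33 molecules) and 46.8 CPM on D21 (6 molecules), below all D3 libraries. The log2 change was -2.42 (SE 0.40) from control to D1 and -0.38 (SE 0.38) to D10.

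Havcr2 (TIM family), a receptor for phosphatidylserine on dying cells and for galectin, was 300 and 183 CPM in the mixed and resident controls and 78.8, 40.7 and 78.0 CPM on D1. On D2 it stood at 147 CPM in the resident and 133 and 170 CPM in the mixed libraries, and D3 libraries spanned 65.8 to 191 CPM. From D2 to D10 its ranges overlapped, with 124, 137 and 149 CPM on D10. Its log2 change from control to D1 was -1.12 (SE 0.41), and -0.73 (SE 0.45) without the mixed control. Sirpa, the receptor for Cd47, had the smallest ratio of highest to lowest level among the members in these microglia: 593 and 468 CPM in the controls, 327, 219 and 171 CPM on D1, 193 to 377 CPM on D3 and 290, 389 and 415 CPM on D10. Every D1 and D10 library lay below both controls in CPM, but the scaled log2 change was -0.42 (SE 0.35) to D1 and 0.05 (SE 0.33) to D10, which is -0.53 (SE 0.32) with library totals in place of the scaling.

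Cd300lf, a receptor for lipids of dying cells, went the other way. It was 3.57 and 11.9 CPM in the mixed and resident controls and 32.6, 38.2 and 115 CPM on D1, an 8.03-fold higher mean with no overlap. On D3 it ranged from 13.5 to 35.7 CPM and on D10 it was 25.7, 15.5 and 21.0 CPM. The log2 change was 3.84 (SE 0.64) from control to D1. To D10 it was 2.15 (SE 0.61), and 1.35 (SE 0.74) without the mixed control. Cd22, a sialic acid receptor best known from B cells, was low until D3 and higher late. It was 7.15 and 3.78 CPM in the controls, 7.0, 4.27 and 4.87 CPM on D1, and 5.96 to 18.6 CPM on D3. On D10 it was 19.96 CPM in the resident and 27.4 and 36.9 CPM in the mixed libraries, and 42.4 CPM on D21. All D10 libraries lay above all D3 libraries, and the mean was 5.14-fold that of the controls (log2 change 2.74, SE 0.42). The summed level of 7 B cell markers was 232 to 314 CPM in the controls and 56.8 to 69.8 CPM on D10. Of the 7, 2 had no count in microglia and 2, Cd79b and Ighm, reached 20 CPM; their part in the Cd22 values was not tested.

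Cd274, the programmed death ligand, stayed low in microglia. It was 8.40 and 12.4 CPM in the controls, 10.8 to 19.0 CPM on D1, 0 to 12.3 CPM on D2, 1.99 to 6.75 CPM on D3, 10.0 to 13.5 CPM on D10 and 11.8 CPM on D21. The D3 libraries lay below the D10 libraries without overlap, on 22 counted molecules in all at D3 (log2 change from D3 to D10 1.58, SE 0.43). With pool as a term that change was 0.37 (SE 1.13).

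**Figure D1:**
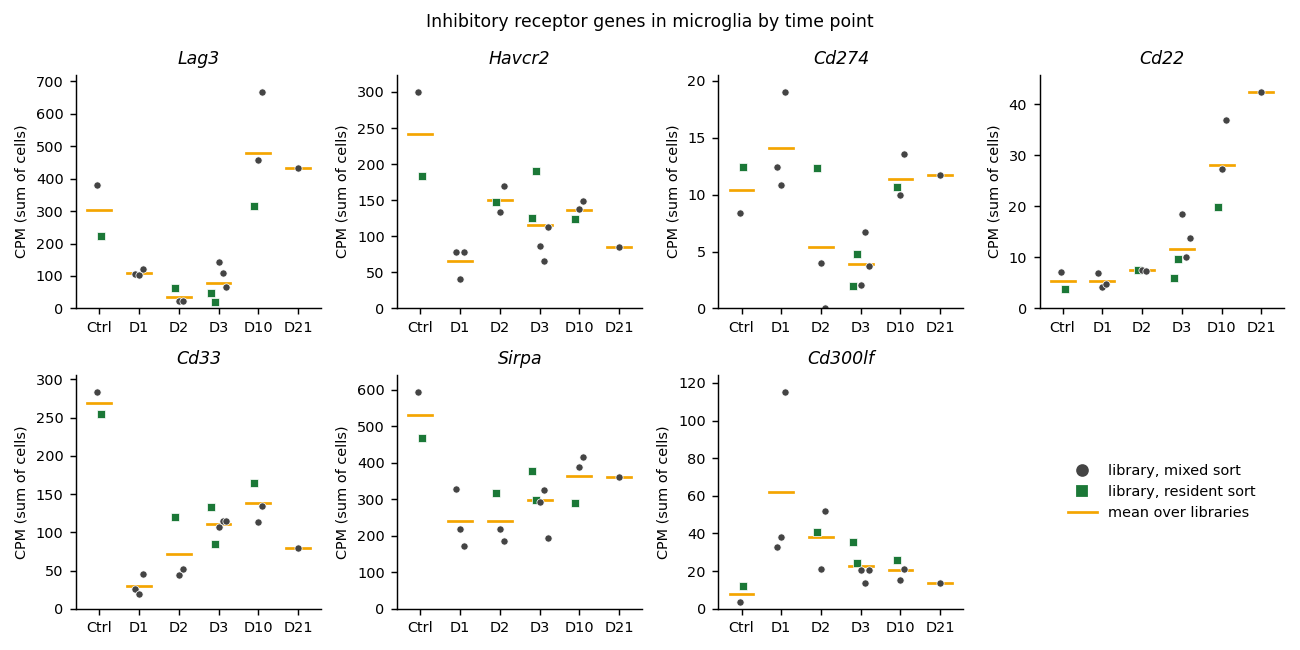
Level of the 7 genes in microglia by time point: each point is 1 mixed or resident library (CPM of its summed microglia, linear axis from 0, 1 panel per gene), coloured by sort, with lines at the group means. Lag3 lies at 20.7 to 144 CPM on D3 and at 315 to 667 CPM on D10, the group means of Cd33 and Havcr2 are lowest, and that of Cd300lf highest, on D1, where single libraries of all 3 genes overlap those of other days.

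Over all 10801 genes tested in microglia with edgeR's quasi-likelihood test, 46.6% were called at an adjusted p under 0.05 from control to D1 (2577 higher, 2457 lower), 37.6% to D3 (2168 higher, 1896 lower), 10.3% to D10 (871 higher, 240 lower) and 6.88% from D3 to D10 (320 higher, 423 lower). Among the 7 members, 1 was called higher and 2 lower on D1, 2 higher and 1 lower on D3, 2 higher on D10, and 3 higher from D3 to D10. The choice of members used these contrasts, so nothing is read from those counts. The scaling matters against controls: library totals in place of the scaling shifted the median of all genes by -0.73 on D1, -0.62 on D3 and -0.60 on D10 (log2), and the splits became 1282 higher and 4383 lower, 1176 and 3956, and 494 and 2161. On that scale Cd300lf changed by 3.09 and Cd33 by -3.15 on D1. Cd22 on D1 changed sign, from 0.42 (SE 0.45) to -0.28 (SE 0.45).

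Other markers moved in the same libraries. The 9 microglia markers summed to 26611 to 30015 CPM in the control microglia, 4787 to 9100 CPM on D1, 10995 to 14625 CPM on D3 and 14366 to 16049 CPM on D10. The 8 monocyte markers summed to 8.40 to 22.1 CPM in controls, 197 to 475 CPM on D1, 361 to 548 CPM on D2, 155 to 661 CPM on D3 and 226 to 282 CPM on D10. On D1 the 7 neutrophil markers summed to 15.5 to 94.7 CPM, against 12.3 to 12.4 CPM in controls. The 9 macrophage markers summed to 320 to 360 CPM in controls, 465.9 to 718 CPM on D1, 1243 to 1796 CPM on D3 and 2041 to 3144 CPM on D10. The part of these lists in the members' values was not tested.

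In macrophages, Cd300lf and Cd274 were lower on D10 than on D1, and the days between were mixed for Cd274. Cd300lf was 159 and 331 CPM in the infiltrating and 153 and 406 CPM in the mixed D1 libraries, 184 to 259 CPM on D2 and 191 and 72.7 CPM on D3. On D10 it was 66.2 and 41.3 CPM in the infiltrating and 26.0 and 19.97 CPM in the mixed libraries, a mean 6.83-fold below D1 with no overlap (log2 change -2.80, SE 0.45). Cd274 was 23.9, 62.4, 63.6 and 112 CPM in the same D1 libraries and 11.4, 6.61, 4.88 and 13.3 CPM on D10, 7.23-fold lower and without overlap (log2 change -2.61, SE 0.62). On D2 it was 14.3 to 48.9 CPM, and on D3 it was 63.5 CPM in the infiltrating and 7.52 CPM in the mixed library, the latter within the D10 range. Both genes thus separated the 4 D1 from these 4 D10 libraries. The macrophages of the resident D10 library (134 cells) had 66.8 CPM of Cd300lf, below all D1 libraries, and 25.97 CPM of Cd274, above the lowest of them.

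Cd22 in macrophages ran in the opposite order. It was 2.31 and 2.50 CPM in the infiltrating and 8.47 and 2.43 CPM in the mixed D1 libraries, 2.04 to 23.9 CPM on D2, and 38.4 and 34.7 CPM in the infiltrating and 21.2 and 11.1 CPM in the mixed D10 libraries (log2 change 3.32, SE 0.88, and 1.87, SE 0.84, in mixed libraries alone). B cell markers were higher in the same macrophage sums, with a summed level of 3.50 to 26.1 CPM on D1 and 60.5 to 245 CPM on D10, whereas the resident D10 library had 23.2 CPM of them with 59.3 CPM of Cd22; their part was not tested. Havcr2 was 102 to 131 CPM on D1 and 18.9 to 79.4 CPM on D10 without overlap (log2 change -1.07, SE 0.46). The days between varied, with 57.3 and 83.2 CPM in the mixed D2 libraries and 34.3 CPM in the mixed D3 library. The D3 mean over sorts was 123 CPM, above the D1 mean of 113 CPM. Cd33 and Sirpa overlapped between D1 and D10, with log2 changes of -0.06 (SE 0.49) and -0.52 (SE 0.31). Of 8577 genes tested in macrophages, 14.4% were called between D10 and D1 (627 higher, 604 lower), and of the members 1 was called higher and 2 lower, from which nothing is read.

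Lag3 was at 2.00 CPM or less in 7 of the 15 mixed and infiltrating macrophage sums and at 11.8 to 158 CPM in the other 8. It was 0 and 0.198 CPM in the infiltrating D1 libraries, at most 0.809 CPM on D2, and 1.72 and 2.00 CPM on D3. It was 12.7 and 68.1 CPM in the mixed D1 libraries labelled 1 and 3, 15.4 to 29.3 CPM on D10, and 11.8 CPM in the infiltrating and 158 CPM in the mixed D21 library. In resident libraries it was 6.94 CPM on D2, 0 in both on D3 and 14.8 CPM on D10. The 9 microglia markers summed to 278 to 1055 CPM in the 7 low sums and to 998 to 4761 CPM in the other 8, the highest being the mixed D21 sum. The 2 did not run in parallel throughout, since the infiltrating D10 library labelled 1 had 3345 CPM of these markers with 15.4 CPM of Lag3, and the mixed D10 library labelled 1 had 1132 CPM with 29.3 CPM; the part of microglial RNA in these values was not tested. Leaving out the cells of deposited clusters 2 and 3 gave 35.7 CPM in the mixed D1 library labelled 3 and 2.41 to 16.03 CPM in 3 of the 4 D10 libraries, with 15.2 CPM in the other; the mixed D21 library and the mixed D1 library labelled 1 then held under 20 cells. The log2 change of Lag3 from D1 to D10 was 1.15 (SE 1.56), and 6.42 (SE 1.51) without the mixed D1 library labelled 3. T and NK cell markers, of cells that also use Lag3, summed to 22.8 and 49.9 CPM in the mixed D10 macrophages and at most 7.36 CPM in the other macrophage sums; their part was not tested.

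**Figure D2:**
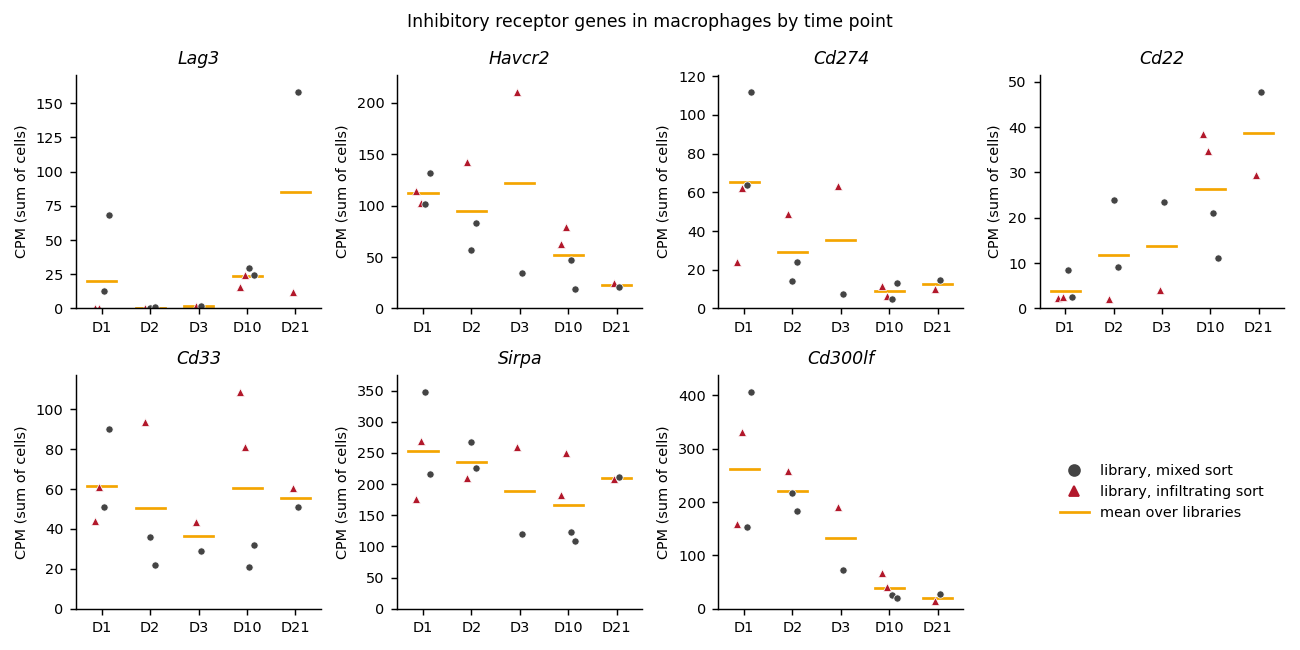
Level of the 7 genes in macrophages by time point: each point is 1 mixed or infiltrating library (CPM of its summed macrophages, linear axis from 0, 1 panel per gene), coloured by sort, with lines at the group means. Cd300lf and Cd274 lie higher on D1 than on D10 in every plotted library, and Lag3 stays under 30 CPM except for 68.1 and 158 CPM in 2 mixed libraries.

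Both cell types were present in 14 libraries, which allows a comparison inside each library, where pool, sort, sex and time are shared. Lag3 was lower in macrophages in 14 of 14 libraries (median log2 ratio -2.56, range -4.51 to -0.79, after adding 5 CPM to both levels). Havcr2 was lower in 12, and Cd33 and Sirpa in 10 each, 1 of the Sirpa libraries (infiltrating, D10, labelled 2) being a tie at 249.7 CPM in both types. Cd300lf was higher in macrophages in 12 libraries and Cd274 in 11, while Cd22 split 7 to 7. The blocked log2 differences, macrophages over microglia, were -3.52 (SE 0.37) for Lag3, -1.02 (SE 0.21) for Havcr2, -0.93 (SE 0.25) for Cd33, -0.44 (SE 0.18) for Sirpa, 0.13 (SE 0.28) for Cd22, 1.43 (SE 0.31) for Cd274 and 1.80 (SE 0.25) for Cd300lf. Of 9596 genes, 28.6% were called (1501 higher, 1243 lower), and 2 members were called higher and 3 lower; the cell type was part of the choice, so these counts are a description. Without clusters 2 and 3 the difference of Lag3 was -4.67.

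**Figure D3:**
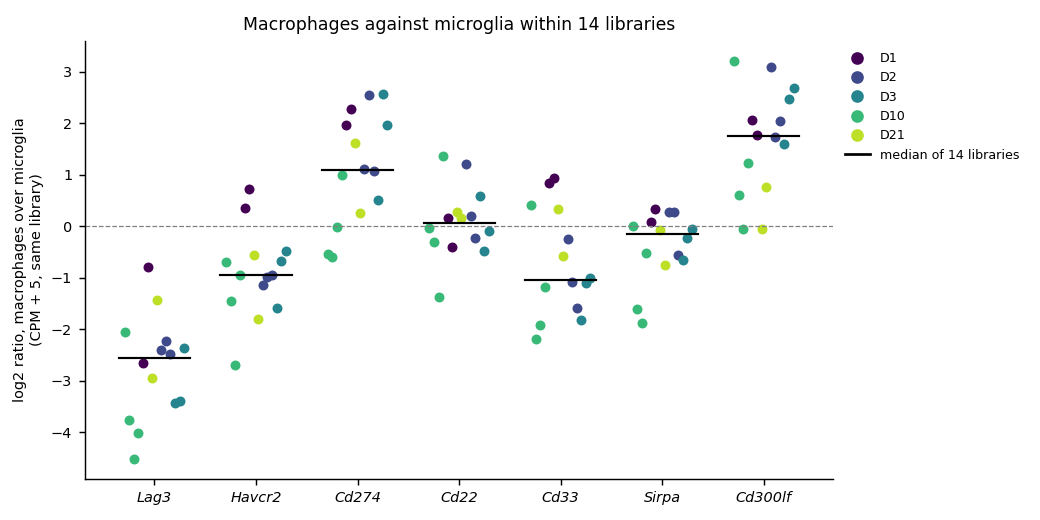
Log2 ratio of macrophages over microglia inside each of 14 libraries, after adding 5 CPM to each level: each point is 1 library, coloured by time point, and the bar is the median. Every Lag3 point lies below 0 (median -2.56), and 12 of 14 Cd300lf points lie above 0.

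The neutrophil-like cells, summed in 4 libraries and made up of cluster 16, had the highest mean levels of Cd300lf and Cd33 among the 4 types. Cd300lf was 608, 1241, 1310 and 499 CPM there, and Cd33 was 446, 494, 1337 and 187 CPM, the last below both control microglia libraries. Cd274 was 36.6, 175, 32.1 and 135 CPM. Lag3 and Cd22 had no count in any of the 4 sums. In 9 sums of dendritic-like cells Cd33 stood at 77.9 to 131 CPM, Cd300lf at 15.0 to 148 CPM and Lag3 at 0.873 to 22.8 CPM.

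Deposited clusters sorted the members further, and the clusters were built on these cells' genes, so this is a description. Lag3 had its highest medians over libraries in cluster 4 (460 CPM, 6 libraries) and cluster 1 (302 CPM, 2 libraries), which held all 1887 control cells and no others. It was 35.04 to 96.1 CPM in clusters 2, 3, 5, 6 and 7, of which clusters 2 and 3 mix microglia and macrophages, and at most 7.48 CPM in clusters 8 to 16. Cd22 was highest in cluster 9 (33.9 CPM), cluster 4 (25.4 CPM) and cluster 3 (23.6 CPM). Havcr2 was highest in clusters 1 (242 CPM), 12 (241 CPM) and 14 (217 CPM), and Cd300lf in clusters 16 (924 CPM), 11 (229 CPM) and 12 (221 CPM).

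**Figure D4:**
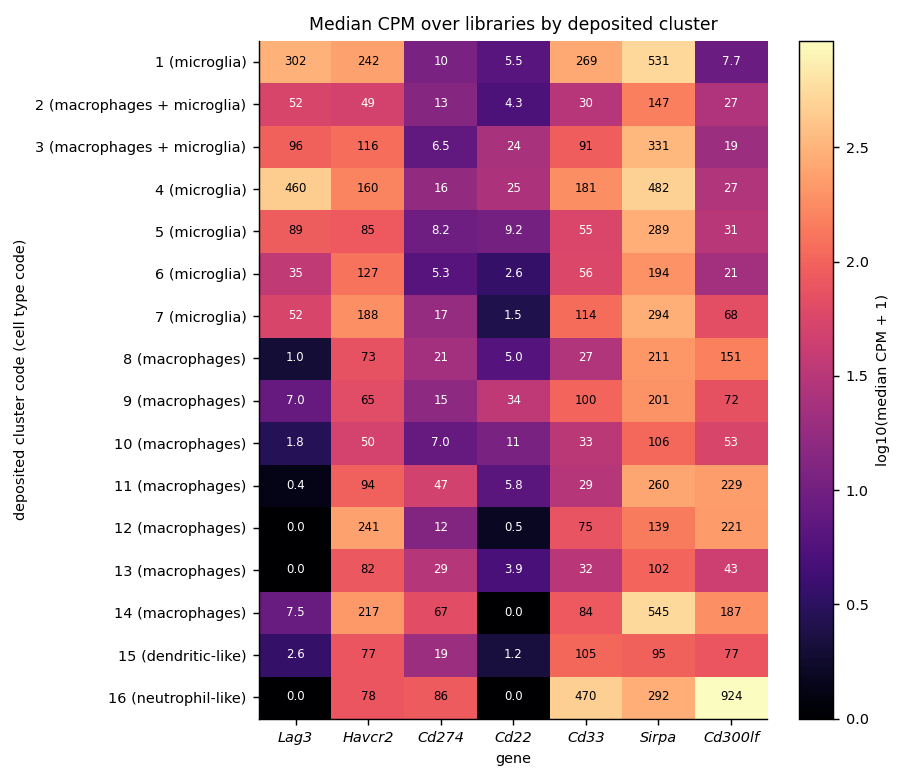
Median level over libraries of the 7 genes in each deposited cluster, as log10 of median CPM plus 1 (colour scale), with clusters in rows and genes in columns. Lag3 is bright in clusters 1 and 4 (302 and 460 CPM) and dark in clusters 8 to 16, while Cd300lf and Cd33 peak in cluster 16.

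Counted per cell, Lag3 molecules were seen in a larger share of microglia than of the other types. With every cell thinned to 1000 UMIs, 16.8% of microglia had a Lag3 molecule (2220 of 13205, exact 95% interval 16.2 to 17.5), against 0.586% of macrophages (0.449 to 0.752) and 0.807% of dendritic-like cells (0.471 to 1.29). Of 1156 neutrophil-like cells 0 had one (upper bound 0.319% of cells with a molecule); their 4 libraries held at most 23 microglia each, so free RNA in libraries rich in microglia was not measured by them. Inside single libraries the macrophage share ran from 0 to 16.7%, and in the mixed D1 library labelled 3 it was 13.0% against 10.8% of microglia. Unthinned shares were 35.9%, 2.17%, 5.28% and 0%. The intervals cover counting error only, and with a median of 9144 UMIs against 3062 the macrophages were the deeper cells. By time, the mean thinned share in microglia was 24.3 ± 6.2% (SD, n = 2) in controls, 9.60 ± 1.0% (SD, n = 3) on D1, 2.71 ± 2.8% (SD, n = 3) on D2, 7.36 ± 4.8% (SD, n = 5) on D3 and 30.2 ± 7.3% (SD, n = 3) on D10, the same order as the levels.

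Cd33 was found in 22.4 ± 2.9% of control microglia (SD, n = 2) and 2.62 ± 1.5% on D1 (SD, n = 3) after the same thinning. Cd300lf was found in 61.5% of neutrophil-like cells, 15.1% of macrophages and 3.02% of microglia. Sirpa was the most often detected member in microglia (26.0%) and macrophages (18.4%). At that depth 51.0% of microglia had at least 1 member, 15.7% at least 2 and 2.93% at least 3, against 42.8%, 9.86% and 1.13% of macrophages.

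Sort and sex played no part in the choice of genes, and no member passed an adjusted p of 0.05 in them with edgeR or DESeq2. At an unadjusted p under 0.05 with edgeR, 2 of 7 members differed between sorts of microglia beside 383 of all 10069 genes, 2 between sorts of macrophages beside 910 of 8577, and 0 between sexes beside 101 of 10801. Between mixed and resident microglia, over 10069 genes of which 0.199% were called (1 higher, 19 lower), the member with the smallest p was Cd300lf, lower in mixed libraries (log2 change -0.78, SE 0.25, adjusted p 0.662, edgeR). Cd22 (0.56, SE 0.25) and Lag3 (0.58, SE 0.38) had the opposite sign. Between mixed and infiltrating macrophages 0.0117% of 8577 genes were called (0 higher, 1 lower). Havcr2 differed by -0.87 (SE 0.30, edgeR adjusted p 0.349) and Lag3 by 2.88 (SE 1.06, adjusted p 0.362), the latter 1.73 without the mixed D1 library labelled 3. Between male and female microglia 0% of genes were called with edgeR, with 101 at an unadjusted p under 0.05 and 0 by DESeq2. The members' log2 changes, male over female, ran from -0.10 (Havcr2, SE 0.27) to 0.61 (Cd274, SE 0.35), and that of Lag3 was 0.53 (SE 0.41).

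**Figure D5:**
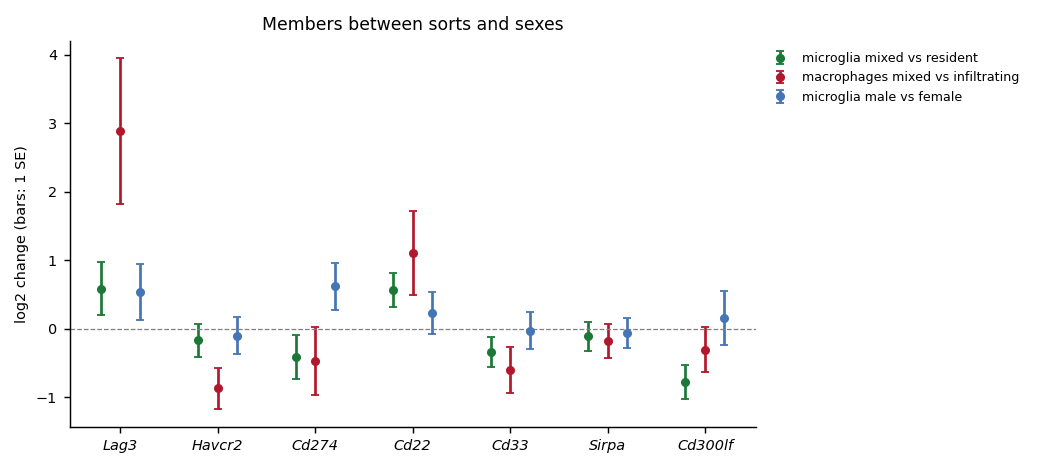
Log2 change of the 7 genes between sorts (mixed over resident microglia, mixed over infiltrating macrophages) and sexes (male over female microglia): points are edgeR estimates and bars are 1 SE. No change passed an adjusted p of 0.05, and the largest is Lag3 in mixed over infiltrating macrophages, at 2.88 with an SE of 1.06.

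Related genes were compared over 5 lists. The lists were chosen with earlier results of these data known, which limits what their tests and counts can support. Each change given with a list here passed edgeR's test at an adjusted p of 0.0411 or less, unless it is said not to be called. Ligands and partners of the members were compared over a list of 14 genes, of which 11 were tested in microglia. From control to D1, 1 was called higher and 2 lower, beside 46.6% of all genes. Lgals3, a galectin, rose from 9.23 to 618 CPM (log2 change 6.77, SE 0.64, adjusted p 2.2e-06). Cd80, a costimulatory ligand that also binds Cd274, fell from 17.6 to 1.07 CPM (log2 change -3.32, SE 0.64), and Ceacam1, a partner of Havcr2, fell by 2.43 on the log2 scale (SE 0.40). Lgals9, another galectin of the list, was not called on D1 (log2 change -0.11, SE 0.34). It was higher on D3 than in controls (1.29, SE 0.32) and fell from D3 to D10 (-1.16, SE 0.28). Within libraries, 6 of 11 were higher in macrophages and 1 lower, beside 28.6%, with a median log2 difference of 1.13 against 0.03 for all genes. Pdcd1, the receptor of Cd274, was the lower gene, at 1.14 CPM in macrophages and 33.2 CPM in microglia (log2 difference -5.30, SE 0.45). Thbs1, which binds Cd47, was higher (5.23, SE 0.71), as was H2-Aa, an MHC class II chain and so a ligand gene of Lag3 (4.23, SE 0.51). In macrophages Thbs1 fell from 2085 CPM on D1 to 7.57 CPM on D10 (log2 change -7.92, SE 1.00), and Lgals3 fell by 2.04 (SE 0.36). Lgals9 aside, each of these calls held in every alternative tried except those of Ceacam1 and Cd80, which were lost in mixed libraries alone. In those the 1 control is female and all D1, D3 and D10 libraries are male, so time against control and sex are separated there by the D2 libraries only. The D3 to D10 call of Lgals9 was lost in 5 of 27 alternatives. Pool as a term could not be fitted from control to D1 or for macrophages from D1 to D10, so those calls were not tried with it.

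Of 16 phosphatases, kinases and adaptors, 2 were higher and 4 lower on D1, beside 46.6% of all genes called. In macrophages within libraries 4 were higher and 1 lower, a share near the 28.6% of all genes. Dok2, an adaptor that dampens kinase signals, rose from 0.986 to 57.0 CPM on D1 (log2 change 6.75, SE 0.63). Cblb, a ubiquitin ligase that restrains immune receptors, stood at 11.6 CPM in controls and 1.61 CPM on D1 (-2.20 on the log2 scale, SE 0.70), a call lost in mixed libraries alone, without the resident control and without the mixed D1 library labelled 2. Inpp5d, the lipid phosphatase SHIP, fell from 338 to 47.8 CPM (log2 change -2.07, SE 0.43). In macrophages Dok2 fell by 3.79 on the log2 scale from D1 to D10 (SE 0.62).

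Among 24 other inhibitory receptors, 20 were tested in microglia, with 4 higher and 6 lower on D1 beside 46.6% of all genes called, 6 and 6 on D3 beside 37.6%, 7 and 5 on D10 beside 10.3%, and 3 higher from D3 to D10 beside 6.88%. Lilr4b rose from 1.17 to 126 CPM on D1 (log2 change 8.04, SE 0.94), and Cd72 rose by 3.00 (SE 0.50). Siglecg fell from 9.32 to 0.0729 CPM, on 72 and 1 counted molecules. Siglecf, a Siglec best known from eosinophils, rose from 9.61 CPM on D3 to 37.5 CPM on D10 (log2 change 2.03, SE 0.31), in the direction of Lag3 and Cd22, and Klrb1b, a lectin-like receptor, rose from 0.797 to 5.49 CPM (log2 change 2.51, SE 0.70), a call lost on leaving out any 1 of 9 libraries. No gene was called from D3 to D10 once pool was a term, Siglecf and Klrb1b included. In macrophages within libraries 7 of 19 were higher and 6 lower beside 28.6%, among them Siglecf (-4.05, SE 0.45) and Clec12a (3.85, SE 0.38). From D1 to D10 macrophages had lower Lilr4b (-3.72, SE 0.53) and Cd200r1, the receptor for Cd200 (-3.24, SE 0.42), and higher Clec12a (2.61, SE 0.52).

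A further list held relatives in the Cd300, Siglec and Tim families, of which the Tim genes Havcr1, Timd2 and Timd4 were not tested in microglia. On D1, beside 46.6% of all genes called, 3 of 6 tested in microglia were called, a share near that background. Of these 1 was higher, Cd300ld (1 molecule in the controls and 87 on D1), and 2 lower, Siglech (1070 to 52.6 CPM, log2 change -3.77, SE 0.45) and Cd300a (153 to 11.8 CPM, log2 change -3.02, SE 0.33). The call of Cd300a was lost in mixed libraries alone. Cd300a fell in the same D1 microglia in which its family member Cd300lf was higher. Within libraries 7 of 11 were higher in macrophages and 2 lower, beside 28.6%. The Sirpa paralog Sirpb1c was 107 CPM in macrophages and 3.80 CPM in microglia (log2 difference 6.84, SE 0.55), and Sirpb1a was 9.50 CPM in macrophages with no count in microglia, opposite to the direction of Sirpa.

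The last list held genes that make, carry, attach or remove sialic acid, the ligand of Siglecs. Of 16 tested in microglia, 4 were higher and 4 lower on D1, a share near the 46.6% of all genes. St8sia4 fell from 30.1 to 0.804 CPM (log2 change -4.61, SE 0.55), and Nans, a sialic acid synthase, rose by 1.68 (SE 0.30), a call lost in mixed libraries alone. Within libraries St3gal6, a sialyltransferase, was 10.1 CPM in macrophages and 73.0 CPM in microglia (log2 difference -3.74, SE 0.46). No gene of the 5 lists passed edgeR's adjusted p of 0.05 between sorts or sexes, where an unadjusted p under 0.05 was reached by 2 to 5 genes of a list between sorts of macrophages (10 to 17 tested per list, beside 910 of all 8577 genes), by 0 to 5 between sorts of microglia (6 to 19 tested, beside 383 of 10069) and by 0 to 2 between sexes (6 to 20 tested, beside 101 of 10801). DESeq2 calls were not counted by list.

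Genes whose microglial level followed that of a member most closely over the 17 sums, which share pools and the contrast of control with injury, are given without a test. For Lag3 they were Gm2a, a lysosomal lipid cofactor (Pearson r = 0.951), Trf, transferrin (0.943), and Ctss, cathepsin S (0.917). For Cd33 the closest was Lyl1 (0.950), for Havcr2 Golm1 (0.896) and for Sirpa Tmem59 (0.882). Between members the correlations ran from -0.59 for Cd33 with Cd300lf to 0.66 for Lag3 with Sirpa.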

How the data were processed

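Each library held a deposited matrix of raw UMI counts per gene and cell, and the deposited cell table gave cell type and cluster codes, the sequencing pool, total counts and the percent of mitochondrial counts per cell, which the authors computed. The submitters' processing notes name Cell Ranger 3.1.0 and the builds GRCm38 and mm10; cell filters and doublet treatment are not given in the sources used here, and no doublet caller was run. From the deposited counts, the cells of 1 type (or cluster) in 1 library were summed where there were at least 20. Sums were compared with edgeR 4.0.16 (quasi-likelihood, TMM scaling, filterByExpr, sex or library as covariate, with sex from the labels, which the deposited code of 1 infiltrating D2 library goes against; R 4.3.3) with Benjamini-Hochberg adjustment over all genes tested and a threshold of 0.05. The SE is the log2 change divided by the root of F. DESeq2 1.42.0, other scalings and filters, pool, mixed libraries alone, a replicate block and leaving out each library were alternatives. The fits were tested on simulated counts. The members and lists were chosen with earlier results of these data known. Of each list, up to 3 genes per comparison could be named, those with the largest absolute log2 change among those called. Library totals as scaling, leaving out clusters 2 and 3, and mixed D1, D3 and D10 libraries without a block were added after seeing the data. Columns of samples from other series numbered 0. For shares, cells were thinned to 1000 UMIs, leaving out 30 microglia, 57 macrophages, 15 dendritic-like and 28 neutrophil-like cells below that; shares per type also leave out the library with conflicting labels and any type with under 20 cells in a library, which counts of members per cell keep. No fold is given for genes at 0.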

Additional observations from a re-analysis of the deposited data

Results flagged for a closer look

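Macrophages on D1 had 1 mixed library, labelled 1, with 8.47 CPM of Cd22, far from the other 3 D1 sums at 2.31 to 2.50 CPM. It rests on 2 counted molecules, and chance sets apart about 1 in 20 of the 21 groups examined.

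Inside libraries, the macrophage over microglia ratio of Havcr2, Cd33 and Sirpa was above 0 in both D1 libraries and below 0 in all libraries of some later times, where 1 of the Sirpa libraries on D10 is a tie, at 249.7 CPM in both types. The mean log2 ratio of Havcr2 was 1.97 higher on D1 than on D10, 1.56 higher than on D2, 1.71 higher than on D21 and 1.45 higher than on D3. For Cd33 it was 1.86 higher than on D2 and 2.19 higher than on D3. For Sirpa it was 1.21 higher than on D10, 0.62 higher than on D21 and 0.53 higher than on D3. These differences between time points were not tested, and D1 gave 2 libraries, with 28 and 54 macrophages.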

How the results depend on the processing

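Against controls the fits rest on 2 libraries. With pool as a term the count of called genes was 255 for D3 against control, 2404 for D10 against control, and 0 for D10 against D3 and for mixed against infiltrating macrophages. In mixed libraries alone it was 1206 on D1, 628 on D3 and 71 on D10 against control, and 117 for D10 against D3. Library totals gave 2655 for D10 against control. DESeq2 gave 1444 for D10 against D3, 52 between sorts of microglia and 104 between sorts of macrophages. Without the filter on low counts the sorts gave 92 and 21, with at least 50 cells or without cluster 2 the microglia sorts gave 6, and without clusters 2 and 3 the macrophage sorts gave 7. Leaving out 1 library at a time gave 3370 to 5314 calls for D1 against control, 1825 to 4420 for D3, 254 to 1316 for D10, 64 to 1578 for D10 against D3 (64 without the mixed D10 library labelled 2, 1578 without the mixed D3 library labelled 3), 376 to 1635 for macrophages D10 against D1, 2213 to 3080 within libraries, 1 to 33 and 1 to 14 between sorts of microglia and macrophages, and 0 to 0 between sexes. Signs turned for Lag3 from control to D3 with pool (0.32), from D3 to D10 with pool for Tyrobp (-0.047), Vsir (-0.43), Cd300lb (-0.65) and St8sia4 (-0.15), whose adjusted p was 0.0280 to 0.0417 without it, and in mixed libraries alone for Cd80 on D1 (2.21) and D3 (3.58) and Fgr on D10 (-0.052); with pool the cause was not tested. In mixed libraries alone the 1 control is female and all D1, D3 and D10 libraries are male, so those values against control rest on the sex difference of the D2 libraries (SE 9.69 and 9.75 for Cd80), one of which sums 23 cells. Of the named related genes, 14 of 14 calls within libraries, 9 of 15 on D1, 1 of 15 on D3, 1 of 15 on D10 against control, 6 of 12 in macrophages and 0 of 11 from D3 to D10 held in every alternative. Thinning to 2000 UMIs or none changed 50 of 56 shares by more than their interval. Pool could not be fitted for D1 against control, macrophages D10 against D1 or the microglia sorts, so calls there were not tried with it.

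Replicate numbers do not pair the libraries: same-numbered mixed D1 and D3 libraries correlated at -0.02, 0.09 and 0.07. A replicate block over mixed D1, D3 and D10 libraries called 827 genes from D3 to D10, against 129 in the same libraries without the block, a fit added after seeing the data; same-numbered libraries were not always the closest; it could not be fitted for comparisons with controls, between sexes or of macrophages on D10 and D1.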
